A study of Mus musculus with 24 samples.

Results

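The genes described here are the cadherins outside the clustered protocadherin array, together with the calsyntenins and the alpha- and delta-catenins, in the medial prefrontal cortex (mPFC) of mice given duloxetine, the gut bacterium *Ruminococcus flavefaciens*, or both. They were taken by symbol among the protein-coding entries of the gene table (Cdh, Cdhr, Pcdh and Celsr with a number, Fat1 to Fat4, Dchs, Clstn, Ctnna and Ctnnd). The rule found 49 of the 15456 genes listed, 13913 of which were protein coding, and all 49 passed the filter of a mean of at least 10 normalized counts. Cdh3, Cdh16, Cdh17, Cdh26 and Fat2 were not among the listed genes.

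RNA of 24 BALB/C mice, 11 weeks of age, was measured in 4 groups of 6, with 1 library per mouse. According to the methods the mice were male, the controls received PBS, duloxetine (an inhibitor of serotonin and norepinephrine reuptake) was injected daily into the peritoneum, and live *R. flavefaciens* was given by gavage. The combined group received the bacterium and the drug. Between 12811413 and 15607343 reads per mouse could be recovered from the normalized values, with group medians of 13591497 in control, 14536037 in duloxetine, 13943370 in *R. flavefaciens* and 14621655.5 in the combined group. The tissue was dissected whole, so that fewer cells of a type and less RNA per cell cannot be told apart in any result below. Markers of cortical excitatory neurons were abundant in every mouse, with summed normalized counts of 6 genes between 94482 and 112331.

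Cadherins are calcium-dependent adhesion proteins of the cell surface. Classical cadherins bind a like molecule on the next cell and hold it to the actin skeleton through beta- and alpha-catenin, while delta-catenins keep them at the membrane. Non-clustered protocadherins adhere more weakly: delta-2 members carry a cytoplasmic stretch that recruits the WAVE actin regulator, and mutation of human PCDH19 causes an epilepsy. Celsr, Fat and Dachsous proteins are very large cadherins of planar cell polarity, and calsyntenins are cadherin-like proteins of the synapse and of kinesin cargo. In cortex these families are known for layer identity, axon targeting and synapse assembly.

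Levels between genes were compared as normalized counts per kilobase of summed exon length. The highest level was that of the calsyntenin Clstn1, which links cargo such as APP vesicles to kinesin. Clstn1 had 5439 ± 394 normalized counts per kb over all mice (SD, n = 24). The calsyntenin Clstn3, an inducer of synapse formation, was next with 1453 ± 125 (SD, n = 24). The remaining calsyntenin, Clstn2, was lower, with 264 ± 26.7 per kb (SD, n = 24). Pcdh1 had 574 ± 56.5 and Celsr2 552 ± 57.8 per kb, followed by Ctnnd2 with 425 ± 26.1 and Pcdh10 with 396 ± 40.2 (SD, n = 24 each). The SD ranges overlapped within each of these pairs, while the first gene of the pair had the higher mean in every group. Differences between genes within a mouse were not tested.

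Among classical cadherins the level per kb was highest for Cdh2 (N-cadherin, the main synaptic type I cadherin) at 261 ± 19.4 and for the type II cadherin Cdh11 at 257 ± 24.8 (SD, n = 24 each). The SD ranges of these genes overlapped. Ctnna2, the neuronal alpha-catenin, had 275 ± 14.5 per kb. The highest of the remaining family groups were Fat3 at 110 per kb, Cdh13 (T-cadherin, which has a lipid anchor in place of a cytoplasmic tail) at 97.1 and Pcdh20 at 43.0. At the low end were Cdh23 at 1.35 per kb, Pcdh12 at 1.71 and Ctnna3 at 2.50.

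Spread between mice also differed among the genes. The coefficient of variation over 24 mice was 5.3% for Ctnna2, 6.1% for Ctnnd2 and 7.4% for Cdh2, against 70.1% for Cdh1 (E-cadherin, the epithelial type I cadherin) and 46.5% for Cdhr1. Cdh1 lay between 4.90 and 49.86 normalized counts, and every group held mice at both ends. Cdhr1, a cadherin of photoreceptors and olfactory bulb output neurons, was at 74.5 in duloxetine mouse 5_3, 68.9 in combined-group mouse 11_3 and 67.9 in control mouse 2_2, the 3 mice with the highest sum of olfactory bulb markers, a list that contains Cdhr1 itself.

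**Figure D1:**
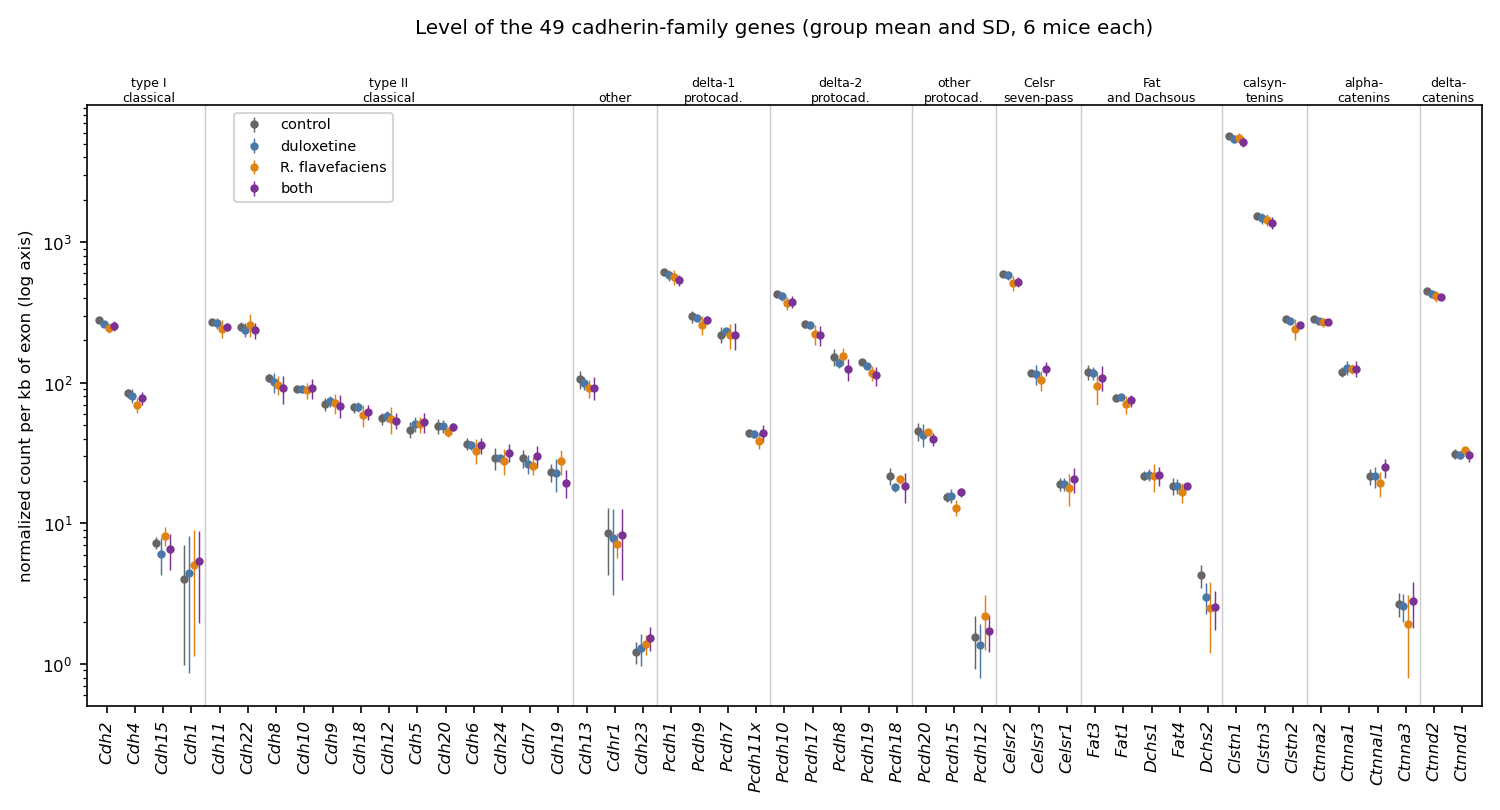
Mean normalized count per kilobase of exon (log axis) of the 49 genes in each of the 4 groups, ordered by level within each family; bars are the SD of 6 mice. Levels run from 1.35 per kb for Cdh23 to 5439 for Clstn1, and group means of a gene lie close together beside the distance between genes.

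The first comparison asked what the bacterium alone did to these transcripts. In the *R. flavefaciens* group 38 of 49 genes had a mean log2 level below control, and 16 were lower and 0 higher at an unadjusted p under 0.05 (limma), where 10.8% of all 14974 genes tested were lower and 8.86% higher. None passed an adjusted p of 0.05 in limma, a threshold passed by 0.0267% of all genes. DESeq2 on the recovered reads called 5 (Cdh2, Cdh4, Celsr2, Pcdh10 and Pcdh19), where it called 1.67% of all genes as lower, and edgeR called 0. The median log2 fold change was -0.14, beside 0.00 over all genes. Of the 16 fold changes, 11 were over 1.5 times smaller with the length trend removed, 11 without mice 8_4 and 9_3 and 6 without mouse 9_3 alone, as described below, and none changed sign. Without mouse 9_3 the counts were 10 lower and 0 higher and the median was -0.08, beside 6.13% of all genes lower.

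By family, 2 of 4 type I classical cadherins were lower at that unadjusted level (Cdh2 and Cdh4), 1 of 13 type II cadherins (Cdh11), 2 of 4 delta-1 protocadherins (Pcdh9 and Pcdh11x) and 3 of 5 delta-2 protocadherins (Pcdh10, Pcdh17 and Pcdh19). So were Pcdh15 of the other protocadherins, Celsr2 of 3 Celsr genes, Fat1, Fat3 and Dchs2 of 5 Fat and Dachsous genes, Clstn2 of 3 calsyntenins, Ctnna3 of 4 alpha-catenins and Ctnnd2 of 2 delta-catenins. The 3 other cadherins (Cdh13, Cdh23 and Cdhr1) held none.

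Cdh2 measured 2113, 2273 and 2381 normalized counts in control mice (lowest, median and highest of 6) and 1827, 1930 and 2264 in *R. flavefaciens* mice. In 5 of the 6 treated mice it was below every control mouse, and the groups overlapped through the remaining mouse. The log2 fold change was -0.18 ± 0.05 (SE, limma adjusted p = 0.0806, exact permutation p = 0.00866, n = 6 per group). For Cdh2 it was -0.12 in limma with the length trend, described below, removed (adjusted p = 0.302).

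Celsr2, a seven-pass cadherin of axon and cilia organization, lies at chr3:108390851-108415552 on the minus strand (GRCm38). It measured 6451, 6872 and 7159 in control and 4661, 6200 and 6509 with the bacterium, and again 5 of 6 treated mice lay below every control. Its log2 fold change was -0.24 ± 0.07 (SE, limma adjusted p = 0.0896). For Celsr2 it was -0.13 in limma with the length trend removed (adjusted p = 0.356) and -0.12 without mice 8_4 and 9_3, which are described below (adjusted p = 0.549).

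The 3 most negative fold changes were of scarce or variable transcripts. Dchs2, a ligand of Fat proteins, had 46.2 ± 8.79 normalized counts in control and 27.0 ± 14.1 in *R. flavefaciens* mice (SD, n = 6 each), a log2 fold change of -0.94 ± 0.29 (SE, limma adjusted p = 0.093). Dchs2 shares 12.0% of its exon bases with a gene on the other strand, and whether reads were counted by strand is not given in the sources used here. Ctnna3 (log2 fold change -0.62 ± 0.29, SE) and Fat3 (-0.38 ± 0.14, SE) had limma adjusted p-values of 0.233 and 0.149. For Fat3 the fold change was -0.23 without mouse 9_3, which had the lowest value of the 24 mice, and -0.19 with the length trend removed (limma adjusted p = 0.457 and 0.485).

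**Figure D2:**
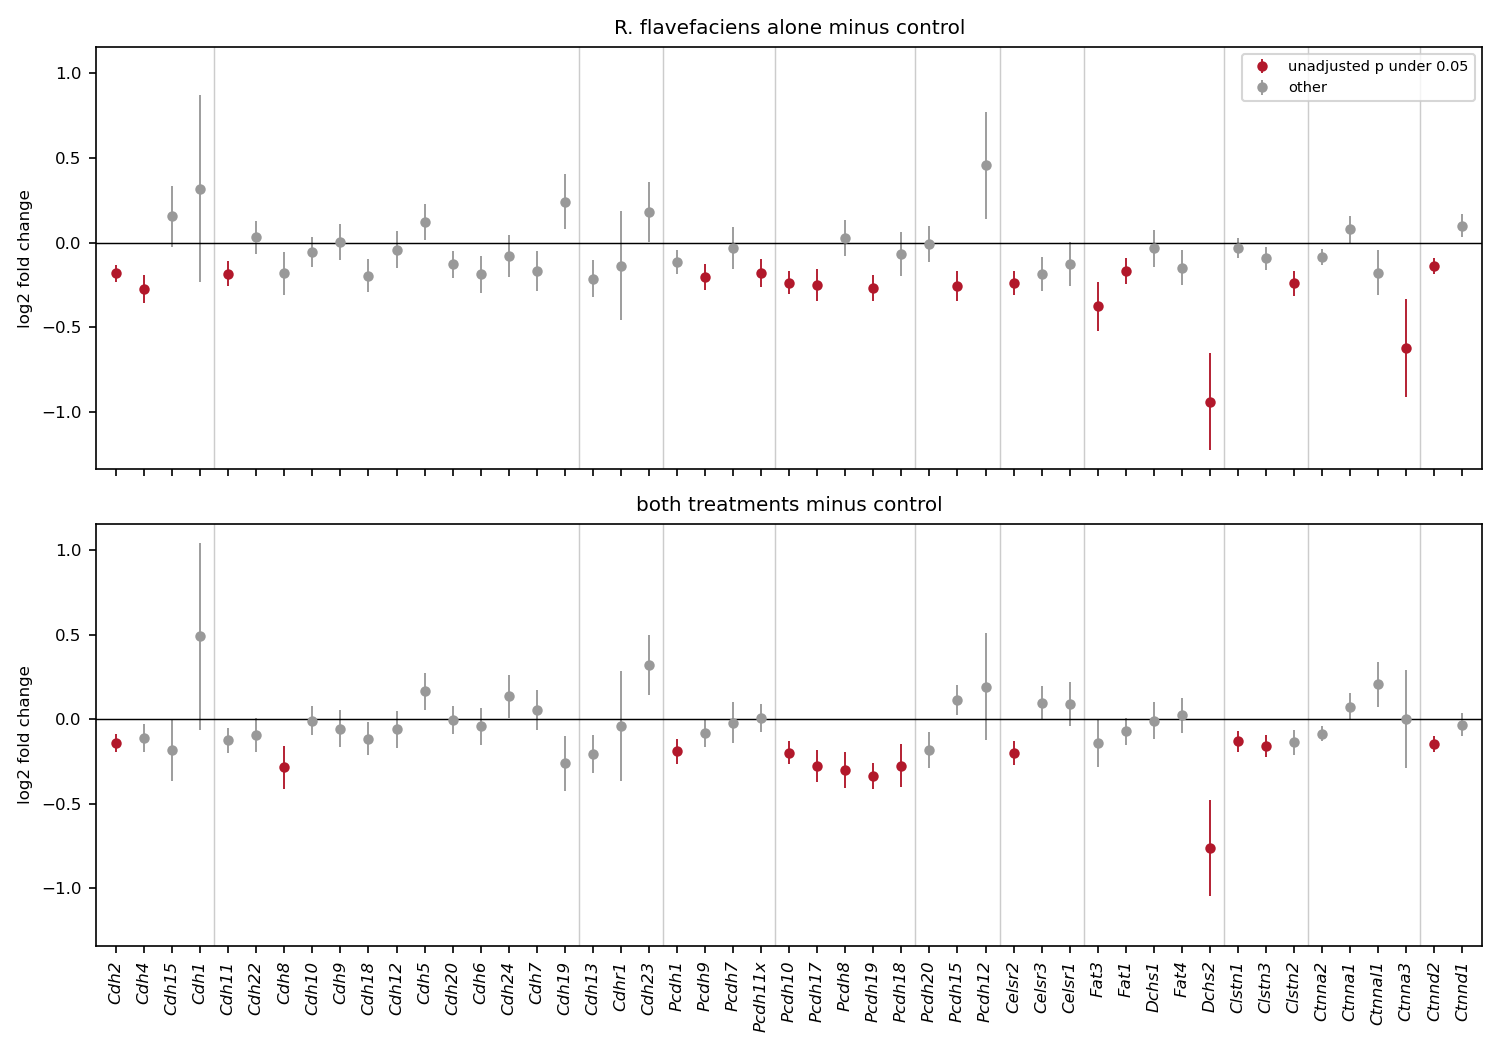
Log2 fold change against control of the 49 genes, by family, for *R. flavefaciens* alone (top) and both treatments (bottom); bars are the limma standard error, and red marks an unadjusted p under 0.05. The 16 red points above and the 13 below are all negative, and all 5 delta-2 protocadherins are red in the lower panel.

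The second comparison set mice given both treatments against the same control mice, so its values are not independent of the first. Here 35 of 49 genes had a negative log2 fold change, and 13 were lower and 0 higher at an unadjusted p under 0.05, where 8.73% of all genes were lower and 8.08% higher. None passed the adjusted threshold in limma, which 0.1% of all genes passed, nor in edgeR, while DESeq2 called Pcdh19, beside 0.708% of all genes as lower. The median log2 fold change was -0.08, beside 0.00 over all genes. With each library rescaled to its 75th percentile, 9 genes were lower and 31 of 49 negative, with a median of -0.05 beside 0.03 over all genes, of which 4.98% were lower and 11.3% higher.

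The delta-2 protocadherins made up 5 of the 13: Pcdh8, Pcdh10, Pcdh17, Pcdh18 and Pcdh19, that is, every member of this family group, with a median log2 fold change of -0.28. The other 8 were Cdh2, Cdh8, Pcdh1, Celsr2, Dchs2, Clstn1, Clstn3 and Ctnnd2. Type II cadherins again held 1 of 13, and none of 4 alpha-catenins was among them. The type II gene, Cdh8, had a log2 fold change of -0.28, and -0.18 without combined-group mouse 11_3 (limma unadjusted p = 0.139, adjusted p = 0.517). The median of the delta-2 group was between -0.29 and -0.25 under the 8 other settings compared, with 4 or 5 of 5 genes at an unadjusted p under 0.05. With the bacterium alone the delta-2 median was -0.24 with 3 of 5 genes lower, but -0.09 with 1 of 5 when the length trend was removed and -0.13 with 2 of 5 without mice 8_4 and 9_3.

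Since these 5 genes were all lower at the unadjusted level with both treatments, though only 3 of 5 were with the bacterium alone, their promoters were read. Of the 49 genes, 36 had a RefSeq promoter entry (GRCm38.p6), and the 250 bases before the start are shown for the 3 delta-2 genes lower at the unadjusted level with the bacterium alone and with both treatments. The spans are chr3:45378148-45378397 (plus strand) for Pcdh10, chr14:84443313-84443562 (plus strand) for Pcdh17 and chrX:133688994-133689243 (minus strand) for Pcdh19. Capitals mark the GC box GGGCGG, searched on both strands together with TGACGTCA, CACGTG and TATAAA.
Pcdh10: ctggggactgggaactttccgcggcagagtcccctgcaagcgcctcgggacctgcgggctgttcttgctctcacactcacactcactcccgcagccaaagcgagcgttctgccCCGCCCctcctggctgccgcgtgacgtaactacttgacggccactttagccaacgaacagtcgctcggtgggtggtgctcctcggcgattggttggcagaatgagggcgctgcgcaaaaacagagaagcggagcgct
Pcdh17: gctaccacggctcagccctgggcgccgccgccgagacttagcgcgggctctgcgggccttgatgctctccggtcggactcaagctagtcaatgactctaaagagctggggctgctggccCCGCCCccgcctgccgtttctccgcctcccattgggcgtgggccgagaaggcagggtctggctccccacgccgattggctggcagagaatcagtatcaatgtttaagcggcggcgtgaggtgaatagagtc
Pcdh19: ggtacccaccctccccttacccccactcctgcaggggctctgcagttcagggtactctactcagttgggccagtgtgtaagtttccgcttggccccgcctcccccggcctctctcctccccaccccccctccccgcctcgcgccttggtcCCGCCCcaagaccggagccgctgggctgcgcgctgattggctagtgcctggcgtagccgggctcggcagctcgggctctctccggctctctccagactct
Each of the 3 windows held 1 GC box and no other of these motifs. The GC box was in 32.7% of 32851 promoter windows of this length. The 36 matched genes had 43 windows, since some have several starts, and 16 of the 43 (37.2%) held it, that of Pcdh18 among them. Pcdh8 had none and held 1 TATAAA, a motif in 12.4% of all windows. The windows held 22 CpG dinucleotides for Pcdh10, 21 for Pcdh17, 16 for Pcdh19, 23 for Pcdh18 and 11 for Pcdh8, against a median of 6 over all windows.

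Pcdh19, which lies at chrX:133582860-133688987 on the minus strand (GRCm38), measured 1385, 1467 and 1559 normalized counts in control mice (lowest, median and highest). It measured 1286, 1387 and 1461 with duloxetine, 1046, 1249 and 1405 with *R. flavefaciens* and 1012, 1122 and 1470 with both. Of the 6 mice given both, 5 lay below every control mouse and mouse 12_3, at 1470, lay among them.
The log2 fold change of Pcdh19 was -0.33 ± 0.08 with both (SE, limma adjusted p = 0.0605, exact permutation p = 0.0108) and -0.27 ± 0.08 with the bacterium alone (SE, limma adjusted p = 0.0806, exact permutation p = 0.00433), n = 6 per group. Under 5 other settings its adjusted p with both treatments was below 0.05, namely 0.0471 in limma on only the groups compared, 0.0401 with the first number of each mouse label as a random block, 0.0372 with the length trend removed, 0.017 in DESeq2 and 0.0204 in limma without mice 8_4 and 9_3. With the bacterium alone Pcdh19 was at -0.18 with the length trend removed and at -0.17 without mice 8_4 and 9_3 (limma adjusted p = 0.267 and 0.518).

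Pcdh10, an autism-associated protocadherin at chr3:45378398-45435623 on the plus strand, measured 6316, 6881 and 7258 in control, 4794, 6122 and 6438 with the bacterium and 5233, 5881 and 6907 with both. In each treated group 5 of 6 mice were below every control mouse. The log2 fold changes were -0.24 ± 0.07 and -0.20 ± 0.07 (SE, limma adjusted p = 0.0806 and 0.163). For the bacterium alone, Pcdh10 was at -0.09 with the length trend removed and at -0.13 without mice 8_4 and 9_3 (limma adjusted p = 0.542 and 0.518).

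Pcdh17, which regulates presynaptic assembly in corticobasal ganglia circuits, lies at chr14:84443563-84539002 on the plus strand. It measured 3117, 3398 and 3722 in control, 2305, 2866 and 3446 with the bacterium and 2262, 2693 and 3501 with both. The groups overlapped, with 4 of 6 mice of each treated group below every control. Its log2 fold changes were -0.25 ± 0.09 and -0.28 ± 0.09 (SE, limma adjusted p = 0.145 and 0.159). Pcdh17 was at -0.13 with the bacterium alone when the length trend was removed (limma adjusted p = 0.51).

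The remaining delta-2 genes were not lower at the unadjusted level with the bacterium alone. Pcdh8 (arcadlin, which activity induces at synapses) had 695 ± 95.5 normalized counts in control, 708 ± 99.7 with the bacterium, 568 ± 101 with both and 630 ± 55.0 with duloxetine alone (SD, n = 6 each). Pcdh18 had 117 ± 15.6, 111 ± 8.38, 98.2 ± 23.9 and 96.9 ± 7.23 in the same order. With both treatments the log2 fold change of Pcdh18 was -0.27, and -0.15 without mouse 12_2 (limma adjusted p = 0.597).
Pcdh8 shares 9.61% of its exon bases with a gene on the other strand.

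Ctnnd2, a delta-catenin of dendrites and spines, lies at chr15:30172593-31029341 on the plus strand and varied little in control mice, from 4451 through 4681 to 4782. It measured 4075, 4175 and 4490 with both treatments, where 5 of 6 mice were below every control mouse. The log2 fold change was -0.15 ± 0.05 with both (SE, limma adjusted p = 0.133, exact permutation p = 0.00433, n = 6 per group) and -0.14 ± 0.05 with the bacterium alone (SE, limma adjusted p = 0.108). Under quantile normalization Ctnnd2 was at -0.08 in each (limma adjusted p = 0.268 and 0.161), and with the bacterium alone it was at -0.05 with the length trend removed (limma adjusted p = 0.656). With both treatments 5 of the 13 fold changes, those of Cdh2, Celsr2, Clstn3, Ctnnd2 and Pcdh1, were over 1.5 times smaller under quantile normalization.

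Of the most abundant genes, Clstn1 had 26294 ± 697 normalized counts in control, 25812 ± 2157 with the bacterium and 24098 ± 2120 with both (SD, n = 6 each, limma adjusted p = 0.284 for both). Pcdh1, a delta-1 protocadherin, had 5366 ± 331, 4980 ± 607 and 4713 ± 426 in the same groups (limma adjusted p = 0.204 for both). Among genes that stood highest in their family, Ctnna2, Cdh13, Cdh11, Pcdh20 and Fat3 had unadjusted p-values above 0.05 with both treatments.

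**Figure D3:**
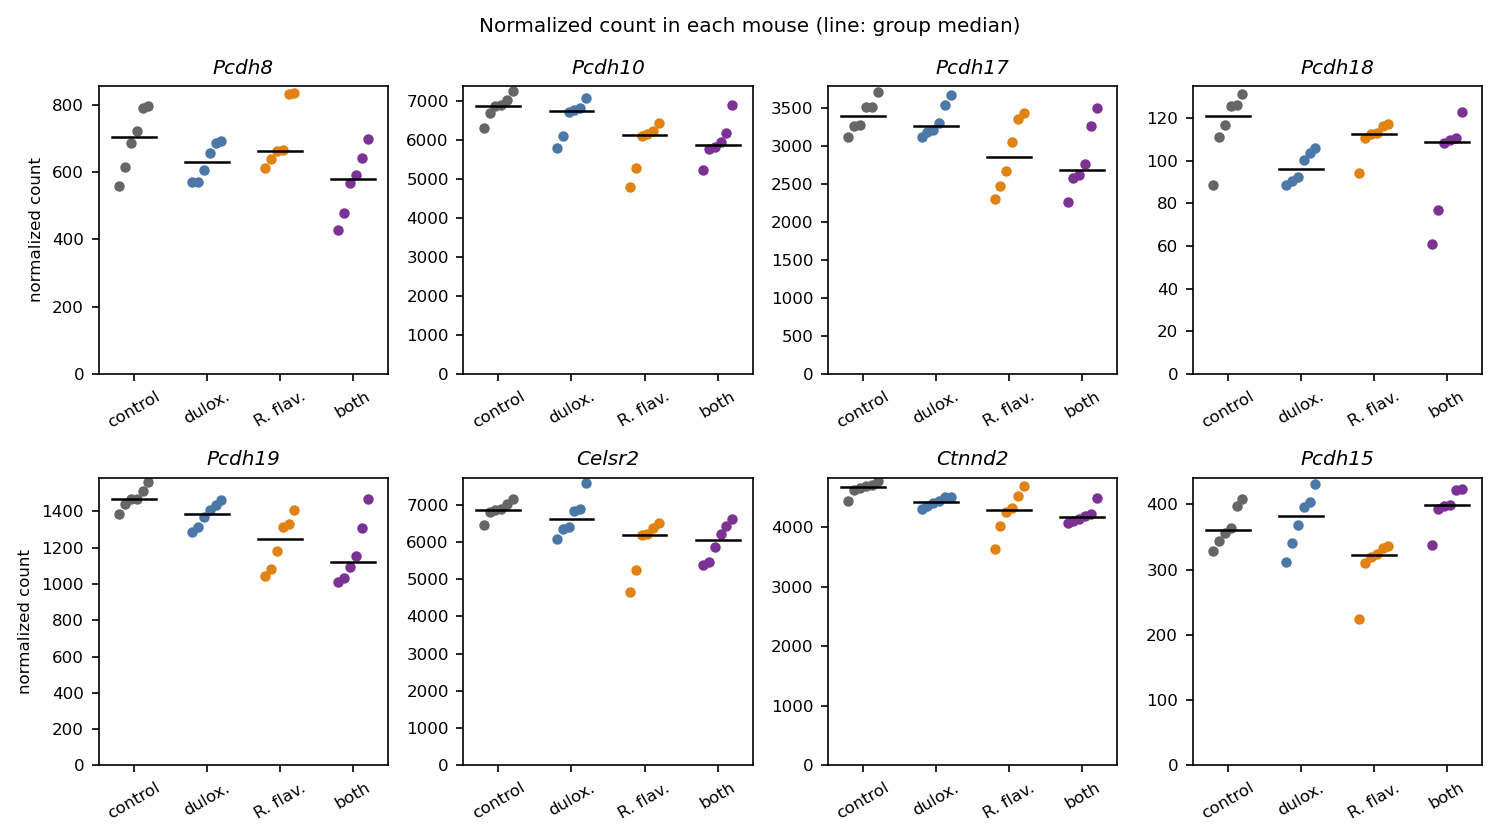
Normalized count of the 5 delta-2 protocadherins, Celsr2, Ctnnd2 and Pcdh15 in each of the 24 mice; every axis starts at 0 and the line is the group median. Pcdh19 has 5 of 6 mice given both treatments below all 6 controls, and Pcdh15 has all 6 mice given both above all 6 given *R. flavefaciens* alone.

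The effect of the bacterium could also be read in mice given duloxetine, by setting the combined group against duloxetine alone. The fold changes of this comparison use none of the mice of the first. Its limma p-values do, because all 24 mice enter the shared estimate of spread, so the p-values of the 2 comparisons are not independent. Here 3 of the 49 genes were lower and 0 higher at an unadjusted p under 0.05 (Celsr2, Pcdh17 and Pcdh19), beside 2.88% lower and 3.02% higher among all genes, and 0 of all genes passed the adjusted threshold (0% of genes). All 3 were also lower at that level with the bacterium alone, and over all genes tested, 0.601% were lower at that level in each of these 2 comparisons. A negative fold change in each was found for 28 of 49 genes (57.1%), against 29.4% of all genes. Fold changes fell with exon length in each comparison (Spearman's rho over all genes -0.44 and -0.13), and this share was not counted among long genes. Among the 2965 genes at least as long as the median of the 49, 3.10% were lower in the combined group against duloxetine alone (unadjusted p under 0.05). In the combined group against duloxetine alone, the count of lower genes went from 2 to 5 when mice were left out in turn. It was 5 without duloxetine mouse 6_2 or combined-group mouse 12_4, 5 in limma on only the groups compared, and 7 without mice 8_4 and 9_3.
Pcdh19 had log2 fold changes of -0.27 ± 0.08 without and -0.24 ± 0.08 with duloxetine in the background, Pcdh17 -0.25 ± 0.09 in each, and Celsr2 -0.24 ± 0.07 and -0.16 ± 0.07 (SE).

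Averaged over the presence of duloxetine, the bacterium gave 16 lower and 0 higher genes at an unadjusted p under 0.05, where 10.4% of all genes were lower and 7.68% higher. Among the 2965 genes at least as long as the median of the 49, 27.4% were lower, against 32.7% of the 49. The smallest p-values were those of Pcdh19 (log2 fold change -0.25 ± 0.06, SE), Celsr2 (-0.20 ± 0.05), Pcdh10 (-0.19 ± 0.05) and Pcdh17 (-0.25 ± 0.07), with limma adjusted p-values of 0.0891 for Pcdh19 and 0.0983 for each of the others. Pcdh10 was at -0.10 with the length trend removed (limma adjusted p = 0.294), where 5 of the 16 were over 1.5 times smaller, as were 6 without mice 8_4 and 9_3. None passed the adjusted threshold in limma, where 0.0267% of all genes did, whereas DESeq2 called 6 (Cdh2, Celsr2, Ctnnd2, Pcdh10, Pcdh17 and Pcdh19), beside 1.54% of all genes as lower. At the unadjusted level 10 genes were lower and 1 higher with the length trend removed, and 11 lower and 0 higher without mice 8_4 and 9_3.

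The third question was what duloxetine alone did. At an unadjusted p under 0.05, 0 genes were lower and 0 higher, where 1.63% of all genes were lower and 2.2% higher, and 0% of all genes passed the adjusted threshold. In limma on only the groups compared, 5 of the 49 (10.2%) were lower and 0 higher, beside 3.71% of all genes lower, and every other setting had at most 2 lower. The log2 fold change was negative in 35 of 49 genes, with a median of -0.04, beside 0.00 over all genes. The median was -0.02 with 30 of 49 negative under 75th percentile rescaling, beside 0.02 over all genes, and -0.03 without duloxetine mouse 6_2. The smallest p-value was that of Pcdh18, with a log2 fold change of -0.26 ± 0.13 (SE, limma adjusted p = 1).

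Adding duloxetine to the bacterium moved 1 gene past the adjusted threshold. Pcdh15, a protocadherin known from the tip links of hair cells and from oligodendrocyte precursors, rose by 0.37 ± 0.09 on the log2 scale in the combined group against *R. flavefaciens* alone (SE, limma adjusted p = 0.0294, exact permutation p = 0.00216, the smallest that 6 against 6 can give). It was called where 2.23% of all genes were. Pcdh15 lies at chr10:73099342-74649737 on the plus strand and, with 23773 exon bases, is the longest transcript set of the 49.

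Its counts were 329, 360.3 and 408 in control (lowest, median and highest), 312, 382 and 431 with duloxetine, 225, 322 and 336 with the bacterium and 338, 399 and 423 with both. All 6 mice given both were above all 6 given the bacterium alone, a pattern found upward in 0.614% of all genes. They overlapped the controls, from which they differed by 0.11 ± 0.09 on the log2 scale (SE, limma adjusted p = 0.534). Without mouse 9_3, the lowest of the 24, the log2 fold change was 0.28 and the call was lost (adjusted p = 0.0692), as it was without mouse 11_3, 12_2 or 12_3, in limma on only the groups compared, or without mice 8_4 and 9_3. With the length trend removed Pcdh15 was at 0.23 and kept the call.

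In the same comparison Celsr3, Ctnna3, Ctnnal1 and Pcdh11x, besides Pcdh15, were higher at an unadjusted p under 0.05, where 9.76% of all genes were higher. Cdh19 (log2 fold change -0.50 ± 0.16, SE, limma adjusted p = 0.0939) and Pcdh8 (-0.33 ± 0.11, SE, limma adjusted p = 0.0953) were lower, where 9.9% of all genes were. Pcdh8 was at -0.20 without mice 8_4 and 9_3 (limma adjusted p = 0.298). In this comparison 3 genes were higher and 3 lower at the unadjusted level without mouse 9_3, and 4 higher and 4 lower without mouse 11_3. There were 3 higher and 4 lower with the length trend removed, and 4 higher and 5 lower without mice 8_4 and 9_3. Averaged over the bacterium, duloxetine gave 1 higher gene (Pcdh15, limma adjusted p = 0.117) and 4 lower (Cdh15, Cdh19, Pcdh8 and Pcdh18) at that level, beside 7.44% and 7.49% of all genes. None passed the adjusted threshold, which 1.03% of all genes passed. At the unadjusted level 3 were higher and 9 lower without mice 8_4 and 9_3, and 1 higher and 7 lower with the length trend removed. Leaving out mouse 5_1, 8_4 or 10_2 gave 3 higher.
The interaction of the treatments, which asks whether duloxetine acts otherwise when the bacterium is present, gave 4 higher genes (Cdh7, Celsr3, Ctnnal1 and Pcdh15) and 0 lower at an unadjusted p under 0.05, beside 3.86% and 3.67% of all genes, and 0 at the adjusted threshold, which 0% of all genes passed. The count of higher genes was 1 without control mouse 2_2, without duloxetine mouse 5_1 or with the length trend removed. It was 6 without *R. flavefaciens* mouse 9_2. For Pcdh15 the interaction was 0.34 ± 0.13 (SE, limma adjusted p = 0.639), and 0.18 with the length trend removed.

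Gene length moved with the first result. The 49 genes had a median summed exon length of 7661 bases, against 4444 for all genes, and 19 of them were in the longest of 10 length classes of equal size. With the bacterium alone, the median log2 fold change of all genes went from 0.14 in the shortest class to -0.12 in the longest, and 37.7% of the longest class were lower at an unadjusted p under 0.05. Across 14958 genes measured in the same libraries, Spearman's rho of fold change with exon length was -0.44. The share of lower genes was 32.7% among the 49 and 30.7% among the 2965 genes at least as long as their median, so that the count of 16 was near that of long genes in general.

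With both treatments the values were smaller. The medians of the shortest and longest class were 0.08 and -0.05, rho was -0.21, and 26.5% of the 49 genes were lower against 12.7% of the 2965 long genes. Removing the length trend by a loess curve in each mouse left 7 lower and 1 higher gene and a median of -0.05 with the bacterium alone, and 14 lower and 1 higher and a median of -0.09 with both. In those fits 6.04% of all genes were lower and 6.83% higher with the bacterium alone, and 12.2% lower and 6.12% higher with both, where the median over all genes was -0.02. Relative to the median of its own length class, Pcdh19 was at -0.15 with the bacterium alone and -0.29 with both, Pcdh17 at -0.13 and -0.23, Pcdh10 at -0.12 and -0.15, Pcdh8 at 0.03 and -0.29 and Pcdh18 at -0.04 and -0.26 on the log2 scale.

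**Figure D4:**
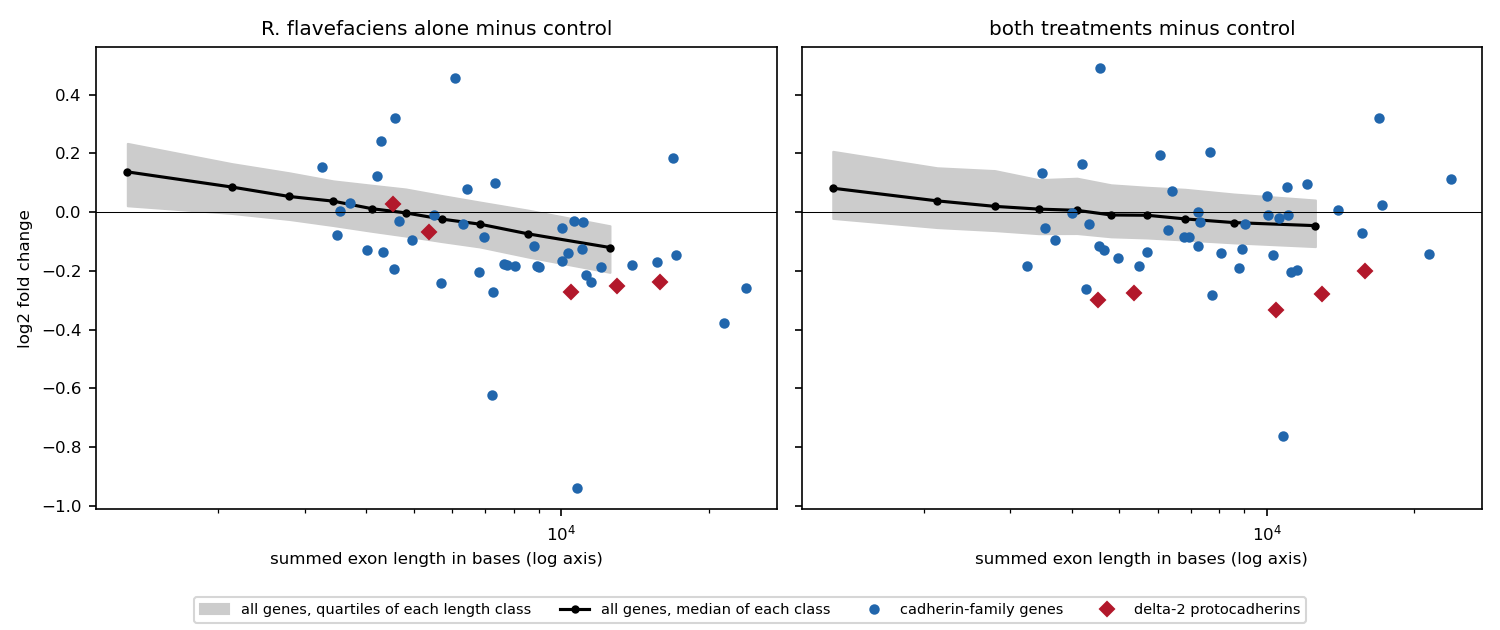
Log2 fold change against summed exon length (log axis) for *R. flavefaciens* alone and both treatments against control; the line and band are the median and quartiles of all genes in 10 length classes, and points are the 49 genes. All 5 delta-2 protocadherins (diamonds) are lower than the lower quartile of their length class with both treatments, whereas with the bacterium alone Pcdh8 and Pcdh18 are between the quartiles.

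A pair of mice of the *R. flavefaciens* group stood apart on different grounds, mouse 9_3 by the values of the 49 genes and mouse 8_4 by striatal and choroid plexus markers. The summed level of the 49 genes was 91006 ± 1200 normalized counts in control, 88083 ± 4466 with duloxetine, 83946 ± 6920 with the bacterium and 82944 ± 4860 with both (SD, n = 6 each), and the lowest of all 24 sums were 74159 in mouse 9_3 and 76733 in mouse 8_4. Next was a sum of 77207 in combined-group mouse 11_3. Mouse 9_3 held the lowest of 24 values in 17 of the 49 genes, mouse 8_4 in 3, and combined-group mice 11_3 and 12_2 in 5 each. Mouse 8_4 had a striatal marker sum of 4720, against a control range of 1368 to 1937, and a choroid plexus marker sum of 791, against 39.2 to 64.2 in control. Other mice lay above these ranges as well, with striatal sums of 2023 in *R. flavefaciens* mouse 8_3 and 2748 in combined-group mouse 11_4. Choroid plexus sums above the control range were 152 in duloxetine mouse 5_3, 73.2, 97.8 and 108 in *R. flavefaciens* mice 8_3, 9_2 and 9_3, and 101, 124 and 119 in combined-group mice 10_2, 11_3 and 11_4. Mouse 9_3 had a striatal sum of 1382 and, at 4670, the lowest sum of the 24 mice over the 6 genes listed as deep cortical layer markers.

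Without both mice, the bacterium alone gave 6 lower and 0 higher genes at an unadjusted p under 0.05, with a median log2 fold change of -0.08 and 4.9% of all genes lower. With both treatments, a comparison that uses these mice only in the shared estimate of spread, 15 genes were then lower, and Celsr2, Ctnnd2, Pcdh10 and Pcdh19 passed the adjusted threshold (limma adjusted p = 0.0426, 0.0256, 0.0488 and 0.0204). In that fit 12.1% of all genes were lower, and 339 of 14974 passed the adjusted threshold, against 15 with all mice.

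**Figure D5:**
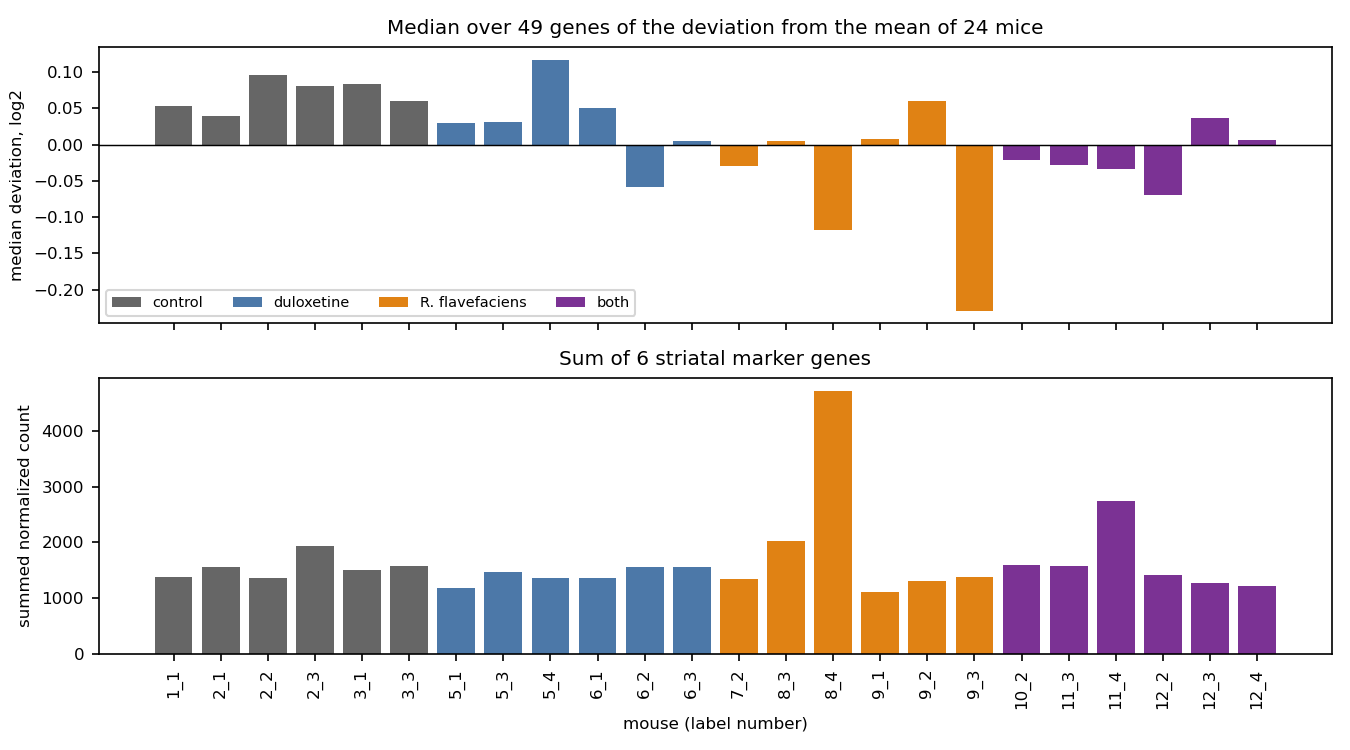
For each mouse, the median over the 49 genes of its log2 deviation from the mean of 24 mice (top) and the summed normalized count of 6 striatal markers (bottom). All 6 controls lie above 0 in the upper panel, mouse 9_3 is lowest, and mouse 8_4 has the highest striatal sum, 4720.

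Other markers moved with the groups as well, and their counts stand beside shares of all genes of 10.8% lower and 8.86% higher with the bacterium alone, 8.73% and 8.08% with both, and 1.63% and 2.2% with duloxetine alone. Of 6 genes listed as deep cortical layer markers (Fezf2, Bcl11b, Foxp2, Tle4, Etv1 and Rorb), 3 were lower at an unadjusted p under 0.05 with the bacterium alone. These were Fezf2, Bcl11b and Tle4 (list median log2 fold change -0.25), and 2 of 6 were lower with both (Fezf2 and Bcl11b). The list sums were 6246 ± 255 in control, 5405 ± 679 with the bacterium and 5597 ± 352 with both (SD, n = 6 each, most abundant gene Bcl11b). Upper cortical layer markers had sums of 9741 ± 425, 9785 ± 1120 and 9744 ± 961 in the same order. Inhibitory neuron markers had 3 of 6 genes higher with the bacterium (Slc32a1, Pvalb and Sst) and 1 of 6 with both, and their sums were 10051 ± 464, 10927 ± 388 and 10460 ± 651. Blood markers, led by Hbb-bs, had 4 of 5 genes higher with the bacterium and 5 of 5 with both, at sums of 349 ± 65.7, 598 ± 204 and 633 ± 351. Microglial markers had 2 of 5 genes higher with the bacterium and 3 of 5 with both, and also 3 of 5 with duloxetine alone. Their sums were 2836 ± 136 in control, 3118 ± 263 with duloxetine, 3086 ± 195 with the bacterium and 3221 ± 440 with both. With both treatments 2 of 5 astrocyte markers and 2 of 6 endothelial and pericyte markers were higher, and with duloxetine alone 1 of 6 of the latter. Oligodendrocyte markers, led by Mbp, had none at that level in either comparison, at sums between 11505 and 51301. Of the 3 choroid plexus markers tested, Ttr was higher with the bacterium alone and with both, with list medians of 0.98 and 0.55 on the log2 scale, and none of 6 striatal markers was higher or lower in either. The olfactory bulb markers Eomes and Tbx21 and the choroid plexus markers Folr1 and Kcnj13 were not among the listed genes. The part of these differences in the cadherin values was not tested.

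Partners of the family outside the rule were read in the same fits. Their counts stand beside 10.8% of all genes lower and 8.86% higher with the bacterium alone, where 30.7% of the 2965 long genes were lower, and 8.73% and 8.08% with both, where 12.7% of the long genes were lower. Among 27 adherens junction partners 7 were lower and 1 higher at an unadjusted p under 0.05 with the bacterium alone, and 5 lower and 1 higher with both, that is, 25.9% and 18.5% lower. The smallest p-value was that of Afdn (afadin, which ties nectins to actin), at 1960 ± 202 normalized counts against 2275 ± 118 in control (SD, n = 6 each; log2 fold change -0.22 ± 0.06, SE, limma adjusted p = 0.0795). For Afdn it was -0.13 with the length trend removed (limma adjusted p = 0.236). Over the 11 other settings, which include DESeq2 and edgeR, the adjusted p of Afdn went from 0.0291 to 0.459. In limma with mice left out in turn it went from 0.0361 to 0.227. The 5 lower with both treatments were Ctnnb1 (beta-catenin), Nectin2, Magi2, Camsap3 and Arhgap35. Nectin2, a nectin of adherens junctions, was the 1 partner past the adjusted threshold in any comparison of the main limma fit. It had 96.3 ± 7.49 normalized counts in control, 85.6 ± 9.99 with duloxetine, 103 ± 11.7 with the bacterium and 76.7 ± 12.3 with both (SD, n = 6 each). Against *R. flavefaciens* alone the log2 fold change of Nectin2 with both was -0.43 ± 0.10 (SE, limma adjusted p = 0.0284), a call lost without mouse 9_3 or 11_3, without mice 8_4 and 9_3 together and in limma on only the groups compared. Averaged over the bacterium, the fold change of Nectin2 with duloxetine was -0.30 ± 0.07 (SE, limma adjusted p = 0.0392), a call lost when any of 15 of the 24 mice was left out, without mice 8_4 and 9_3 together and under 75th percentile rescaling. Magi2 and Arhgap35 were lower in all 6 mice given both than in any control, where 1.16% of all genes were.

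Of the 9 genes of the WAVE complex, which delta-2 protocadherins recruit, Cyfip2, Nckap1 and Abi2 were lower and Brk1 was higher at that level with the bacterium alone and again with both. Brk1, its smallest subunit, had 2171 ± 220 normalized counts with the bacterium and 2099.8 ± 96.2 with both, against 1889 ± 61.3 in control (SD, n = 6 each, limma adjusted p = 0.0727 and 0.154). With the bacterium alone the log2 fold change of Brk1 was 0.20 ± 0.05 (SE) and 0.07 with the length trend removed (limma adjusted p = 0.517), while DESeq2 gave an adjusted p of 0.0185. Of 9 cadherin cleavage genes, Adam10 and Aph1b were lower and Psenen (a gamma-secretase subunit, log2 fold change 0.24 ± 0.08, SE, limma adjusted p = 0.103) was higher with the bacterium alone. Psenen was at 0.13 in this comparison with the length trend removed (limma adjusted p = 0.404). Over the 11 other settings, DESeq2 and edgeR among them, its adjusted p went from 0.0455 to 0.587. In limma with mice left out in turn it went from 0.0397 to 0.324.

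Of 12 planar polarity and Fat partners 2 were lower and 0 higher with the bacterium alone and with both: Fzd3 (log2 fold change -0.29 ± 0.10, SE, limma adjusted p = 0.124) and Prickle1 with the bacterium, and Prickle1 and Dvl3 with both. These are 16.7% of the list in each comparison. Fzd3 was at -0.16 without mouse 9_3, at -0.17 with the length trend removed and at -0.10 without mice 8_4 and 9_3 (limma adjusted p = 0.634). Prickle1, a planar polarity protein, had the smaller p-value with both treatments, at 1736 ± 131 normalized counts against 2051 ± 97.3 (SD, n = 6 each; log2 fold change -0.24 ± 0.05, SE, limma adjusted p = 0.0519), and was chosen for naming after its values were seen. Of 7 calsyntenin cargo genes none was lower or higher with the bacterium alone, where the smallest p-value was that of Apba2 (log2 fold change -0.09 ± 0.05, SE, limma adjusted p = 0.289), and App alone was lower with both.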

How the data were processed

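Poly(A) RNA of 24 mPFC samples was sequenced by the authors on an Illumina HiSeq. The submitters' processing notes name TopHat2 2.1.0, Bowtie2 2.2.6 and DESeq2 1.18.1, and the methods name GRCm38.p5; the counting program and the use of strand are not given in the sources used here. The deposited signal values are gene counts that the authors divided by 1 size factor per mouse. At least 99.97% of each mouse's values were whole multiples of a step (tolerance 0.0051), which gave recovered reads; 0 columns were left out.

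limma 3.58.1 (R 4.3.3) was run on log2(value + 1) of 14974 genes with a mean of at least 10, with 4 groups in 1 fit, 8 contrasts, a trended prior, two-sided tests and Benjamini-Hochberg adjustment within each comparison. A fold change on this scale understates the change of low genes. Exact permutation tests used all 924 groupings of 12 mice. DESeq2 1.42.0 and edgeR 4.0.16 were run on recovered reads. Positions and exon lengths came from GENCODE vM21 (47 of 49 genes at the listed position). Pcdh12 and Ctnna1 had other positions there, and Ctnnd1 shared 61.2% of its exon bases with another gene. Mice were group housed according to the methods. Which of them shared a cage or a litter is not given in the sources used here, and p-values set each difference against the spread between these mice. No first label number was shared between groups, and what it stands for is not given. A random block for it therefore cannot separate it from treatment.

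Genes were named by rule: those past an adjusted p of 0.05 in any comparison, up to 4 lower and 4 higher with the smallest unadjusted p under 0.05 in the 3 main comparisons (0 higher genes met this), the smallest p in each other comparison, the highest level per kb in each family, and the smallest p of each partner list. Other genes given with values (Clstn2, Clstn3, Cdh1, Cdh5, Cdh8, Cdh19, Cdh23, Cdhr1, Pcdh8, Pcdh12, Ctnna3, Dchs2, Nectin2 and Prickle1) were chosen after their values were seen. The genes and lists were chosen with earlier results of these data known. Tests were checked on simulated data. Python 3.11.15, numpy 2.4.6, pandas 2.3.3, scipy 1.17.1 and matplotlib 3.10.9 were used.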

Additional observations from a re-analysis of the deposited data

Results flagged for a closer look

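Among 80 groups of 6 values looked at (20 named genes in 4 groups), 5 held a mouse far from the other 5 of its group by Dixon's ratio at the 95% level; chance gives about 1 in 20. Pcdh15 was at 224.88 in *R. flavefaciens* mouse 9_3, where the others lay between 310.09 and 335.88, and at 338.16 in combined-group mouse 10_2, where the others lay between 392.79 and 423.29. Cdh11 was at 2556.24 in control mouse 2_2 (others 2374.61 to 2413.39). Ctnnd2 was at 4490.16 in combined-group mouse 12_3 (others 4074.63 to 4225.11), the mouse that also lay among the controls for Pcdh19. Pcdh18 was at 94.19 in *R. flavefaciens* mouse 7_2 (others 110.75 to 117.12).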

How the results depend on the processing

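The number of genes past an adjusted p of 0.05 depended on tool and mice in 4 comparisons. For *R. flavefaciens* alone it was 0 in limma and 5 in DESeq2, and from 0 to 5 when mice were left out in turn (4 without 8_3, 3 without 9_1, 5 without 9_2, where 427, 239 and 616 of all genes passed against 4 with all mice); the median log2 fold change was -0.053 with the length trend removed. For both treatments against control it was 0, and 1 in limma on only the groups compared, with the first label number as a random block (consensus correlation -0.05), with the length trend removed and in DESeq2, 4 without mice 8_4 and 9_3, and from 0 to 2 when mice were left out in turn (2 without 9_3, 1 without 12_3 or 12_4, where 123, 43 and 154 of all genes passed against 15). For both against *R. flavefaciens* alone it was 1, and 0 in limma on only the groups compared and without mice 8_4 and 9_3, and from 0 to 2 when mice were left out in turn (0 without 9_3, 11_3, 12_2 or 12_3, 2 without 7_2 or 8_4), while the median went from 0.041 to -0.027 with the length trend removed, -0.0035 without mouse 9_3 and -0.023 without mice 8_4 and 9_3. For the bacterium averaged over duloxetine it was 0, 6 in DESeq2, and from 0 to 4 when mice were left out in turn (4 without 8_3, 1 without 9_2 or 12_3, where 135, 69 and 7 of all genes passed against 4). The interaction median was 0.068, -0.014 with the length trend removed, 0.034 without mouse 9_3 and -0.00061 without mice 8_4 and 9_3. The other comparisons had 0 under every setting run. Leaving out mice 8_4 and 9_3 together was chosen after seeing the data. Other causes were not tested. No paired analysis was possible because the groups share no replicate numbers. With 6 mice a group, exact tests reach at best 0.00216.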

Other observations

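The cadherins of vessel walls were read beside the vessel markers. Cdh5 (VE-cadherin, which joins endothelial cells) had 195 ± 24.8 normalized counts in control, 214 ± 26.3 with duloxetine, 213 ± 29.1 with *R. flavefaciens* and 219 ± 35.8 with both (SD, n = 6 each). Pcdh12, also of endothelial cells, had 9.43 ± 3.83, 8.27 ± 3.49, 13.2 ± 5.65 and 10.4 ± 3.03 in the same order. Neither gene had an unadjusted p under 0.05 in any of the 8 comparisons, while the summed endothelial and pericyte markers were 4098 ± 222, 4392 ± 481, 4314 ± 222 and 4682 ± 704.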
